A study of Mus musculus with 8 samples.

Results

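Guca2a, Guca2b and Gucy2c encode the guanylin peptides of the gut and the receptor they share, and their transcripts were followed through 4 treatment groups of mouse small intestine. The members were taken as every probe set annotated to one of these 3 genes, out of 12394 genes named on the arrays. Each gene had 1 probe set: 1416905_at for Guca2a (gene ID 14915), 1460233_at for Guca2b (gene ID 14916) and 1436370_at for Gucy2c (gene ID 14917). All 3 passed the filter on low signals.

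The tissue came from female C57/Black6 mice, 6 weeks old, injected intraperitoneally each day for 5 days. The groups received the solvent DMSO alone (vehicle), dexamethasone at 15 mg/kg, DBZ at 10 umol/kg, or dexamethasone and DBZ at those doses (the combination). Dexamethasone is a synthetic glucocorticoid, and DBZ inhibits gamma-secretase, the protease that releases the active part of Notch receptors. The labels name the tissue as unprocessed small intestine and give no segment, and no genetic alteration is named for any group. The study concerned how dexamethasone modifies the effect of DBZ in the gut. RNA of whole tissue was read on Affymetrix arrays, in which the signal of a probe set rises with the abundance of its transcript.

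Guanylin (Guca2a) and uroguanylin (Guca2b) are small peptides that intestinal epithelial cells release into the lumen. Both bind guanylate cyclase C (Gucy2c), a receptor in the apical membrane of those cells, which then makes cyclic GMP. Cyclic GMP activates the kinase Prkg2 and through it opens the chloride channel Cftr and holds back sodium uptake, so that salt and water move into the lumen. In rodents guanylin is known to be made mainly in the distal small intestine and colon, and uroguanylin mainly in the proximal small intestine.

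The genes of both peptides lie next to each other on mouse chromosome 4, with 0 annotated genes between them in the RefSeq gene table. Their promoters are shown because these adjacent genes gave different values across the groups. RefSeq promoter sequences on GRCm38.p6 were matched for 2 of the 3 members, without Gucy2c. Each sequence below is the 250 bases before the annotated start, read on the strand of the gene; the Guca2a window is chr4:119637482-119637731 (plus strand) and the Guca2b window is chr4:119658946-119659195 (minus strand). Capitals mark matches to 3 short motifs, searched on both strands. The letters GATAAG stand for GATA factors. RBPJ, the DNA-binding partner of Notch, was searched as TGGGAA. The glucocorticoid receptor was searched by the core letters TGTTCT. A match on the opposite strand appears in reverse complement, as CTTATC for the GATA motif. In the same way TTCCCA is a match to the RBPJ motif.
Guca2a promoter: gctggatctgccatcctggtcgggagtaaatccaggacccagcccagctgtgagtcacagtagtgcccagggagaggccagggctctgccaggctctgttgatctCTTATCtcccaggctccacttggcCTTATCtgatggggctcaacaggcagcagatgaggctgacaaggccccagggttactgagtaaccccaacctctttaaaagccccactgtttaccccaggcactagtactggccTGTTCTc
Guca2b promoter: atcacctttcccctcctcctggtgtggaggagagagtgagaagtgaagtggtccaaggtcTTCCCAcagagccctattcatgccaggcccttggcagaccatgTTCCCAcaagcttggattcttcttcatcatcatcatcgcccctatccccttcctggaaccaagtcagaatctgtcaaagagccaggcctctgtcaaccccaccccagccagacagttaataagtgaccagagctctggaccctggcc
The Guca2a window held 2 matches to GATAAG, at 145 to 140 and 121 to 116 bases before the start, and 1 to TGTTCT, at 7 to 2 bases before it. Of 32851 mouse promoter windows of this length, 6.548% held at least 1 match to GATAAG and 0.353% held 2 or more, and 16.085% held TGTTCT. The Guca2b window held 2 matches to TGGGAA, at 190 to 185 and 147 to 142 bases before the start. TGGGAA was present in 21.594% of all windows, with 2.77% holding 2 or more. No motif was found in both windows, and no match overlapped another. The letters TTTATNG (CDX) and CAAAGTCCA (HNF4) gave 0 matches in either window and occurred in 9.811% and 0.384% of all windows.

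The labels listed 2 samples for each group, but both DBZ columns held the same value in 22684 of 22690 probe sets (all but 6) and were treated as a single array. That leaves 7 arrays: 1 for DBZ and 2 for each of vehicle, dexamethasone and the combination, and this number limits the precision of every value. An exact 2-sided permutation test of 2 arrays against 2 cannot go below p = 0.333, so tests rest on a limma fit over all 13637 tested probe sets, in which the lone DBZ array takes its spread from the other groups. As deposited, the vehicle arrays had a trimmed mean signal of 497, the others 248 to 249, and every array was scaled here to 250. Markers of intestinal epithelium were present on every array: their lowest signal was 509, for Cdx2 on dexamethasone array 1, and the 13 genes summed to 65608 to 65852 with vehicle, 65893 to 70840 with dexamethasone, 76589 with DBZ and 66433 to 90192 with the combination. Signals come from whole tissue, so fewer cells of a type and less RNA per cell cannot be told apart.

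Guca2a was higher in every treated group than with vehicle, by more than 4-fold each time. The 2 vehicle arrays gave scaled signals of 1551 and 1335. Dexamethasone gave 6799 and 6492, the DBZ array 6699, and the combination 5059.8 and 7275. The vehicle arrays were the lowest of the 7, with no overlap with any treated array, and the 5 treated arrays overlapped one another. The group means (± SD, n = 2 each) were 1443 ± 153 for vehicle, 6646 ± 217 for dexamethasone and 6167 ± 1566 for the combination.

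On the log2(signal + 12.46) scale, Guca2a rose by 2.21 with DBZ against vehicle (SE 0.25, 95% interval 1.65 to 2.77, 4.62-fold), with a limma adjusted p of 0.00255. It was 1 of 3 members called there, against 8.34% of all tested probe sets (3.75% higher and 4.58% lower), and 45 of the 13637 had a larger positive difference. With dexamethasone it rose by 2.20 (SE 0.21, interval 1.74 to 2.66, 4.59-fold, limma adjusted p 0.000419), again 1 of 3 members against 12% of probe sets (7.16% higher and 4.83% lower). With the combination it rose by 2.07 (SE 0.21, interval 1.61 to 2.52, 4.19-fold, limma adjusted p 0.000873), 1 of 3 members against 7.5% of probe sets (4.44% higher and 3.06% lower). Guca2a kept these 3 calls under each alternative run, and its smallest differences, 1.21, 1.20 and 1.07, were those of the values as deposited.

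The treated groups did not separate in Guca2a. The combination differed from DBZ by -0.14 (interval -0.70 to 0.42, limma adjusted p 0.865) and from dexamethasone by -0.13 (interval -0.59 to 0.33, limma adjusted p 0.880). DBZ differed from dexamethasone by 0.01 (interval -0.55 to 0.57, limma adjusted p 0.987). In these 3 comparisons 0 of 3 members were called, against 0.33%, 0.0293% and 0.337% of probe sets. At an unadjusted p under 0.05, limma gave 1 of 3 members for the combination against DBZ, where it gave 1683 of all 13637 probe sets, and 1 for DBZ against dexamethasone, where it gave 2075. Both times this was Gucy2c. For the combination against dexamethasone it gave 0 members and 1265 probe sets. The change with DBZ in mice given dexamethasone differed from its change in mice without it by -2.34 (the interaction, SE 0.32, limma adjusted p 0.00672), 1 of 3 members called against 4.01% of probe sets (2.08% higher and 1.94% lower). The sum of the 2 single-drug differences was larger than the difference measured with both drugs by that amount. Because the treated groups lay close together, this value is near the Guca2a difference from vehicle with its sign reversed. A gene that stands higher in all treated groups alike gets a negative interaction by the same arithmetic. Interactions of the same sign were also called in lists of distal small intestine, smooth muscle and fibroblast genes, given further below.

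**Figure D1:**
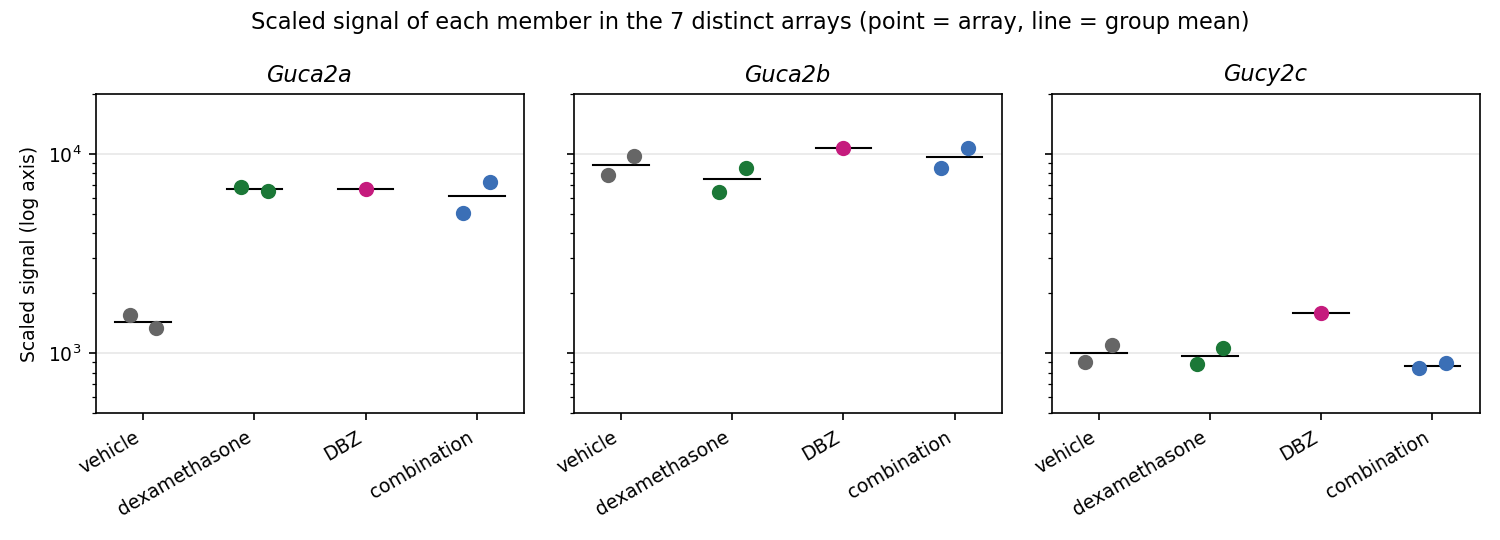
Scaled signal (log axis) of Guca2a, Guca2b and Gucy2c by treatment group; each point is 1 of the 7 arrays and each line a group mean. Guca2a lies at 1335 to 1551 with vehicle and at 5059.8 to 7275 in the treated arrays, while the Guca2b groups lie close together and Gucy2c is highest on the DBZ array, at 1587.

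Markers of position along the gut differed between vehicle and treated arrays in the same direction as Guca2a. Of 14 tested genes of the distal small intestine, 9 (DBZ), 8 (dexamethasone) and 6 (combination) rose against vehicle, and 0 fell. The summed signal of that list was 19597 to 19884 with vehicle, 29919 to 45280.2 with dexamethasone, 53933 with DBZ and 29725 to 36309.7 with the combination. Fabp6, the bile acid binding protein of the ileum, was near 0 in the vehicle arrays at 0.644 and 1.22, and Slc10a2, the ileal bile acid transporter, was at 1.71 and 7.14. In the treated arrays Fabp6 was at 1125 to 11961 and Slc10a2 at 17.5 to 165. Of 14 tested genes of the proximal small intestine, 4 (DBZ), 7 (dexamethasone) and 4 (combination) fell, and 0 rose; Reg1, a secreted regenerating protein, was at 7238 and 8147 with vehicle and 55.0 to 101 in the treated arrays. The proximal list summed to 63330.3 to 71676 with vehicle, 35222 to 36459.8 with dexamethasone, 51825 with DBZ and 50127 to 60672 with the combination. The part of intestinal position in the Guca2a difference was not tested.

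Guanylin is also known from goblet cells, the mucus-secreting cells of the epithelium. Of 14 tested goblet cell genes, 1 rose and 1 fell with DBZ, 5 rose and 0 fell with dexamethasone, and 1 rose and 1 fell with the combination. Galnt7, the only gene of the list with a negative difference with DBZ, was at 513 and 662 with vehicle and 289 with DBZ. Its signals were 507.5 and 442 with dexamethasone, and 269 and 379 with the combination. Clca1, a protein secreted by goblet cells, rose by 1.22 (DBZ), 0.93 (dexamethasone) and 0.95 (combination; limma adjusted p 0.0318, 0.0319 and 0.0391). As deposited Clca1 stood at 0.22, -0.07 and -0.05, where the median of all tested probe sets was -0.997, -0.923 and -0.985. Without vehicle array 1 its adjusted p was 0.0722, 0.0755 and 0.0938, and without vehicle array 2 it was 0.107, 0.177 and 0.173. The combination call was also lost without combination array 2 (0.159) or either dexamethasone array (0.0513 and 0.0511), and the dexamethasone call without either dexamethasone array (0.0904 and 0.152). The summed goblet cell signal was 32152 to 37648 with vehicle, 46962 to 48457 with dexamethasone, 48287 with DBZ and 35736 to 54916 with the combination, so that the vehicle and combination arrays overlapped. Of the 48457 on dexamethasone array 1, the single gene Klk1 held 9085.5, against 340 to 1410 on the other arrays. The part of goblet cells in the Guca2a values was not tested.

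Dexamethasone array 1 stood apart in some genes of the colon list. Car1, a carbonic anhydrase of colonic epithelium, was at 7460.4 there and at 1.45 to 52.9 on the other 6 arrays. Cyp2c55, a cytochrome P450, was at 6324 there, at 1029 and 2818 with vehicle and at 117 to 362 on the other 4 treated arrays. Saa3, an acute-phase protein, was at 936 there and at 39.2 to 207 elsewhere, and Retnlb, a goblet cell protein, at 125 there and at 1.65 to 8.48 elsewhere. The other colon genes did not all follow: Slc26a3 was at 918 on that array against 1196.5 and 1281 with vehicle, and Aqp8 and Fxyd4 lay within the vehicle range. With dexamethasone 5 of 7 tested colon genes had a negative difference from vehicle (median -0.37). The summed colon list was 18052 on that array, 2122 on dexamethasone array 2, 4458 to 5940 with vehicle, 1880.4 with DBZ and 1639 to 1945 with the combination. Without dexamethasone array 1 the Guca2a difference from vehicle was 2.16 and kept its call. The part of colon tissue in the Guca2a values was not tested.

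Genes of the intestinal wall outside the epithelium also rose with treatment. Of 12 tested smooth muscle genes, 6 (DBZ), 9 (dexamethasone) and 5 (combination) rose, and of 14 fibroblast and matrix genes, 8, 12 and 7 rose; 0 fell in either list. The smooth muscle sum was 14805 to 19231 with vehicle and 27232 to 38587 in the treated arrays, and the fibroblast sum was 3174 to 6155 and 9729 to 13270.4. Their part in the values of the 3 members was not tested.

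**Figure D2:**
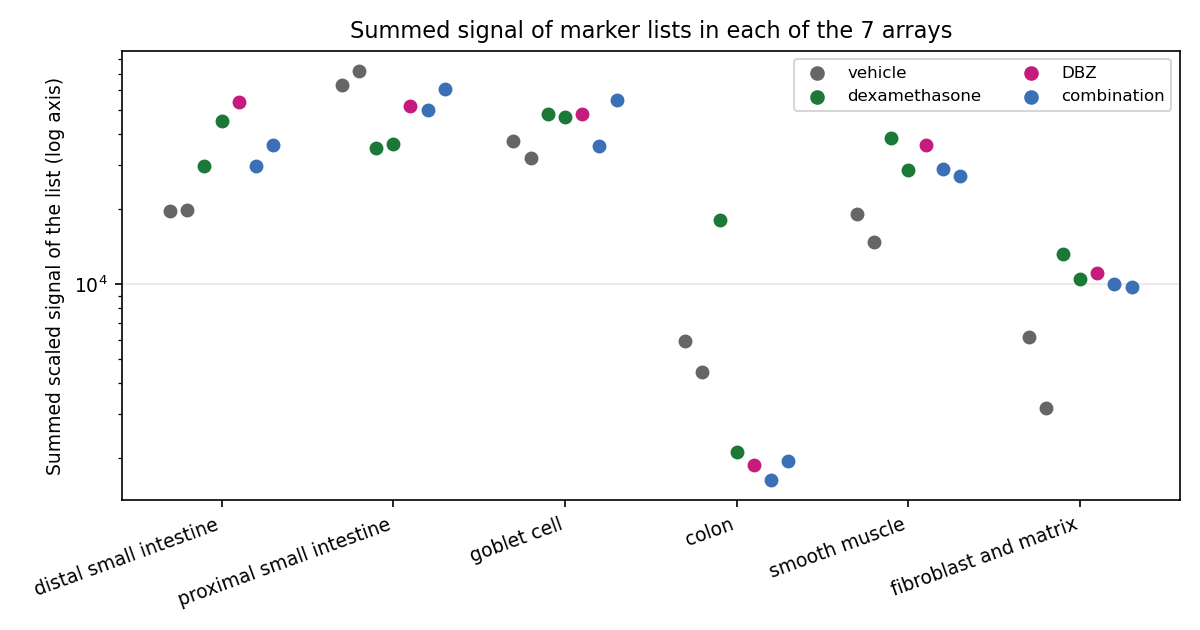
Summed scaled signal (log axis) of 6 marker lists; each point is 1 array, coloured by group. The distal small intestine, smooth muscle and fibroblast sums are lowest in the vehicle arrays, the proximal sum is highest there, and dexamethasone array 1 stands above the others in the colon list.

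Guca2b, the uroguanylin gene, gave no called difference in any of the 7 comparisons. Vehicle tissue gave 7800.03 and 9784, and dexamethasone 6442 and 8516. The DBZ array gave 10770.5 and the combination 8516 and 10732. The lowest array was dexamethasone array 1, and the DBZ array was the highest by a small margin over combination array 2. Group means were 8792 ± 1403 with vehicle, 7479 ± 1467 with dexamethasone and 9624 ± 1567 with the combination (SD, n = 2 each), so vehicle overlapped with dexamethasone and with the combination.

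Against vehicle, Guca2b differed by 0.30 with DBZ (SE 0.27, interval -0.30 to 0.90, limma adjusted p 0.516). The difference was -0.24 with dexamethasone (SE 0.22, interval -0.73 to 0.25, limma adjusted p 0.545) and 0.13 with the combination (SE 0.22, interval -0.36 to 0.62, limma adjusted p 0.768). These intervals leave room for changes of up to about 0.90 on the log2 scale and do not show that uroguanylin transcript was the same. The DBZ array stood 0.54 above dexamethasone (limma adjusted p 0.382), and the combination stood 0.37 above dexamethasone (limma adjusted p 0.637). The combination differed from DBZ by -0.17 (limma adjusted p 0.850). The interaction was 0.07 (limma adjusted p 0.935). The direction of Guca2b against vehicle depends on the scaling: as deposited it was -0.70 (DBZ), -1.23 (dexamethasone) and -0.87 (combination), past the threshold each time, while the median of all tested probe sets was -0.997, -0.923 and -0.985.

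Gucy2c, the receptor gene, was highest on the single DBZ array. That array gave 1587, against 903 and 1101 for vehicle. Dexamethasone gave 887 and 1062, and the combination 841 and 895. The DBZ array lay above the other 6, vehicle and dexamethasone overlapped, and both combination arrays lay below both vehicle arrays by less than the spread within vehicle. Group means were 1002 ± 139.8 with vehicle, 974 ± 124 with dexamethasone and 868 ± 38.4 with the combination (SD, n = 2 each).

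Against vehicle, Gucy2c differed by 0.66 with DBZ (SE 0.22, interval 0.18 to 1.15), and with a limma adjusted p of 0.0875 it did not pass. It differed by -0.04 with dexamethasone (limma adjusted p 0.916) and by -0.20 with the combination (limma adjusted p 0.529). The combination differed from DBZ by -0.86 (interval -1.35 to -0.38, limma adjusted p 0.159), and DBZ from dexamethasone by 0.70 (interval 0.22 to 1.19, limma adjusted p 0.180). The unadjusted p of these 3 differences with the DBZ array were 0.0121, 0.00267 and 0.00897, each from a limma fit with 1 DBZ array. The combination differed from dexamethasone by -0.16 (limma adjusted p 0.823), and the interaction was -0.82 (limma adjusted p 0.135). Ratios of 3' to 5' signal, which climb as RNA degrades, were also highest on the DBZ array: 1.80 (Gapdh) and 2.17 (beta-actin), against 0.905 to 1.22 and 1.22 to 1.79 elsewhere. The part of RNA integrity in the Gucy2c value was not tested. The same holds for every other difference that uses the DBZ array, including those of the genes and second probe sets below.

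**Figure D3:**
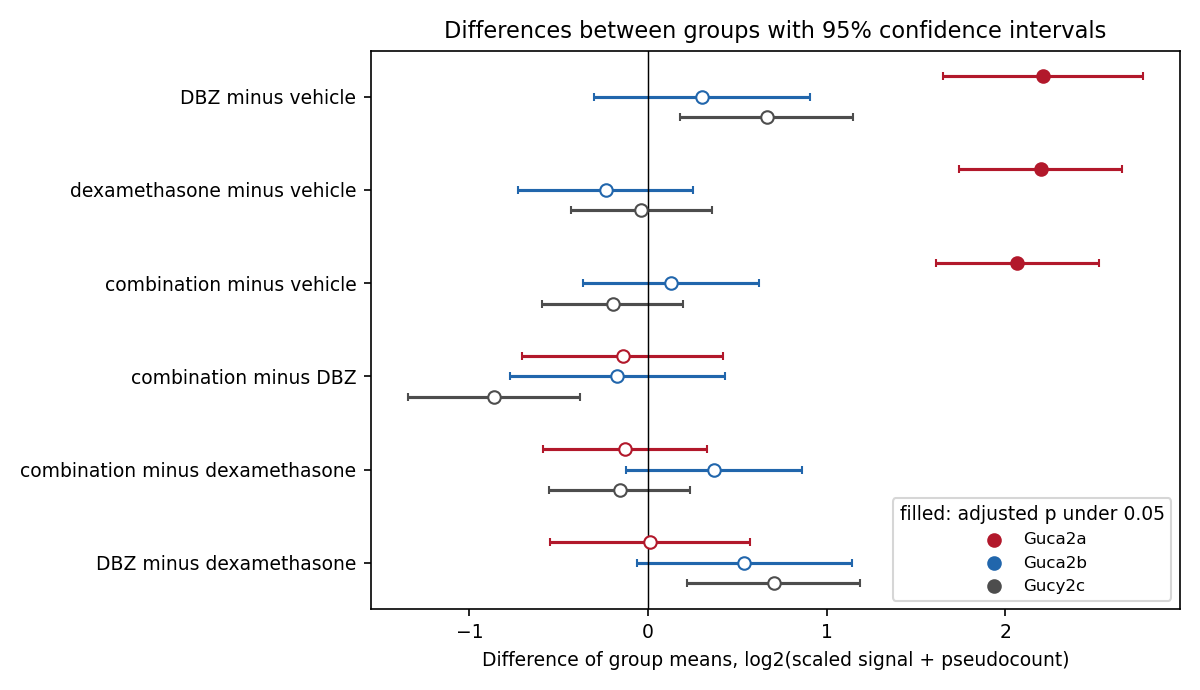
Differences between group means on the log2(signal + 12.46) scale for Guca2a, Guca2b and Gucy2c in 6 comparisons, with 95% confidence intervals; filled points have a limma adjusted p under 0.05. The 3 filled points are Guca2a against vehicle, at 2.21, 2.20 and 2.07, and Gucy2c lies at -0.86 for the combination against DBZ without passing.

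The members were also set against each other within each array, which removes the scaling of that array. Guca2a relative to Guca2b, taken as a log2 difference minus its vehicle mean, was 0.27 and -0.27 for vehicle, 2.67 and 2.20 for dexamethasone, 1.91 for DBZ, and 1.84 and 2.03 for the combination. The peptide genes thus changed unequally on all 5 treated arrays, and every treated array lay above both vehicle arrays. Guca2b relative to Gucy2c was -0.02 and 0.02 for vehicle, -0.27 and -0.13 for dexamethasone, -0.36 for DBZ, and 0.21 and 0.45 for the combination. The ratio of uroguanylin to receptor transcript was therefore lower than vehicle with either drug alone and higher with both, by amounts below 0.46 that were not tested.

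**Figure D4:**
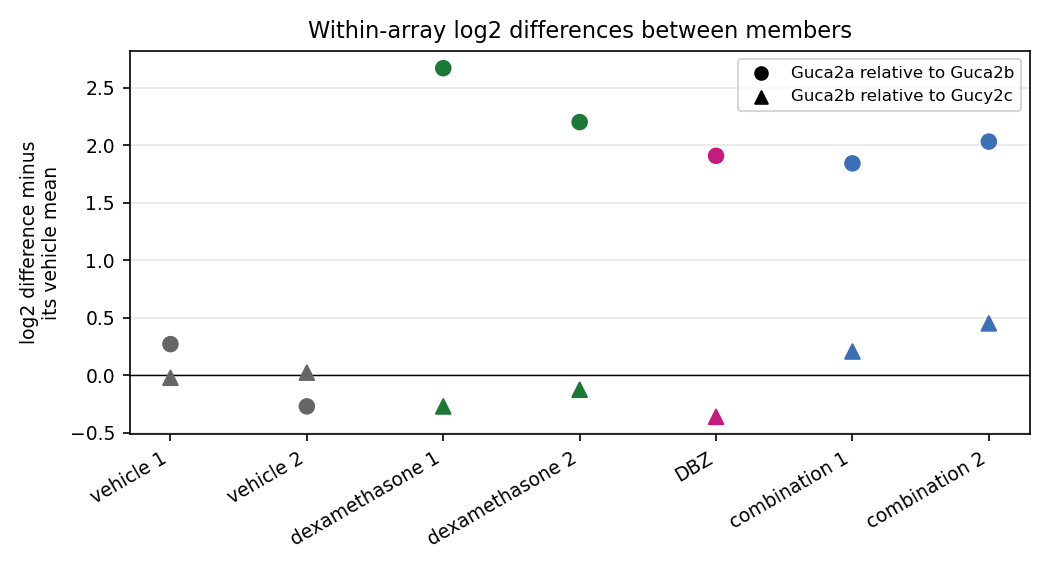
Log2 difference between members on the same array, minus its mean in the vehicle arrays, for the 7 arrays; circles are Guca2a relative to Guca2b and triangles Guca2b relative to Gucy2c. Circles lie at 1.84 to 2.67 on the treated arrays and triangles at -0.36 to 0.45.

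The signalling genes around the receptor were described from a list of 21 genes, of which 18 were named on the arrays and 15 were tested. Slc9a3, Pde5a and Abcc4 were not analysed here. With DBZ against vehicle 1 gene rose and 3 fell, with a median difference of -0.42 over the list and -0.05 over all tested probe sets. That median was -0.16 without vehicle array 2, and -0.08 over 18 genes with no filter. With dexamethasone 0 rose and 1 fell, with medians of 0.07 and 0.02. That 1 became 0 without vehicle array 2, and the fit with the replicate block gave 1 rose and 1 fell. The list median turned negative without any 1 of the vehicle or dexamethasone arrays (-0.05 to -0.15). With the combination 0 rose and 2 fell, with medians of -0.36 and -0.04; the list median ran from -0.16 without combination array 2 to -0.56 without vehicle array 1. In the comparisons among treated groups and the interaction 0 of 15 were called. Over all tested probe sets the share was 0.33% (combination against DBZ), 0.0293% (combination against dexamethasone), 0.337% (DBZ against dexamethasone) and 4.01% (interaction). Against vehicle it was 3.75% higher and 4.58% lower (DBZ), 7.16% and 4.83% (dexamethasone), and 4.44% and 3.06% (combination). The same shares stand beside the counts of the other lists.

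Cftr, the chloride channel opened by cyclic GMP signalling, fell in all 3 treated groups. Its signal was 900.1 and 941 (vehicle), 494 and 536 (dexamethasone), 294 (DBZ), and 306 and 323 (combination). All 5 treated arrays lay below both vehicle arrays, with DBZ and the combination below dexamethasone. The log2 difference from vehicle was -1.61 with DBZ (SE 0.20, limma adjusted p 0.00338), and -1.51 with the combination (SE 0.16, limma adjusted p 0.0014). With dexamethasone it was -0.82 (SE 0.16, limma adjusted p 0.0119), and that call was lost without dexamethasone array 1 (-0.76, limma adjusted p 0.0866) and without vehicle array 2 (-0.79, limma adjusted p 0.0509).

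Slc26a3, the chloride and bicarbonate exchanger of the apical membrane, also counted among the colon genes, fell with DBZ (difference -1.67, SE 0.29, limma adjusted p 0.0109). The arrays gave 1281 and 1196 for vehicle, 918 and 533 for dexamethasone, 381 for DBZ, and 488 and 531 for the combination. The combination differed by -1.26 (limma adjusted p 0.0134), a call lost without either combination array or either vehicle array (limma adjusted p 0.0547 to 0.107). With dexamethasone the difference was -0.81 (limma adjusted p 0.0523). A second probe set of Slc26a3 gave -1.31 (DBZ), 0.19 (dexamethasone) and -0.29 (combination), so the probe sets disagreed in size and, for dexamethasone, in sign.

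Kcne3, a potassium channel subunit of the basolateral membrane, fell with DBZ (difference -1.75, SE 0.47, limma adjusted p 0.0496). It was at 429 and 343 for vehicle, 457 and 353 for dexamethasone, 106 for DBZ, and 94.1 and 277 for the combination. Pdzk1, an apical scaffold protein that binds Cftr and sodium exchangers, rose with DBZ by 0.98 (SE 0.26, limma adjusted p 0.0486), from 1750.2 and 1994 with vehicle to 3700.0. In the values as deposited Pdzk1 stood at -0.02, where the median of all tested probe sets was -0.997. Both calls lay close to the threshold and were lost without vehicle array 1 (limma adjusted p 0.148 for Kcne3 and 0.143 for Pdzk1) and without vehicle array 2 (0.0872 and 0.0817). Leaving out arrays of other groups, which share the estimate of spread, also ended them: either dexamethasone array for Kcne3 (0.0562 and 0.0561) and either combination array for Pdzk1 (0.0699 and 0.0709).

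Prkg2 is the membrane-bound kinase that cyclic GMP activates, and its 2 probe sets disagreed. The brighter, which stands for the gene in the list counts, differed by -0.42 (DBZ), -0.57 (dexamethasone) and -0.36 (combination; limma adjusted p 0.361, 0.138 and 0.360) and did not pass. The other differed by -1.27, -0.47 and -0.38, and passed with DBZ (limma adjusted p 0.0153) but not with dexamethasone or the combination (0.156 and 0.266). Slc9a3r1, a scaffold that tethers the kinase and its targets under the brush border, differed by 0.42, 0.08 and 0.29 in the same order, and did not pass. Pde9a, a phosphodiesterase that degrades cyclic GMP, differed by 0.59, 0.50 and 0.55 (limma adjusted p 0.0930, 0.0702 and 0.0688) and did not pass.

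**Figure D5:**
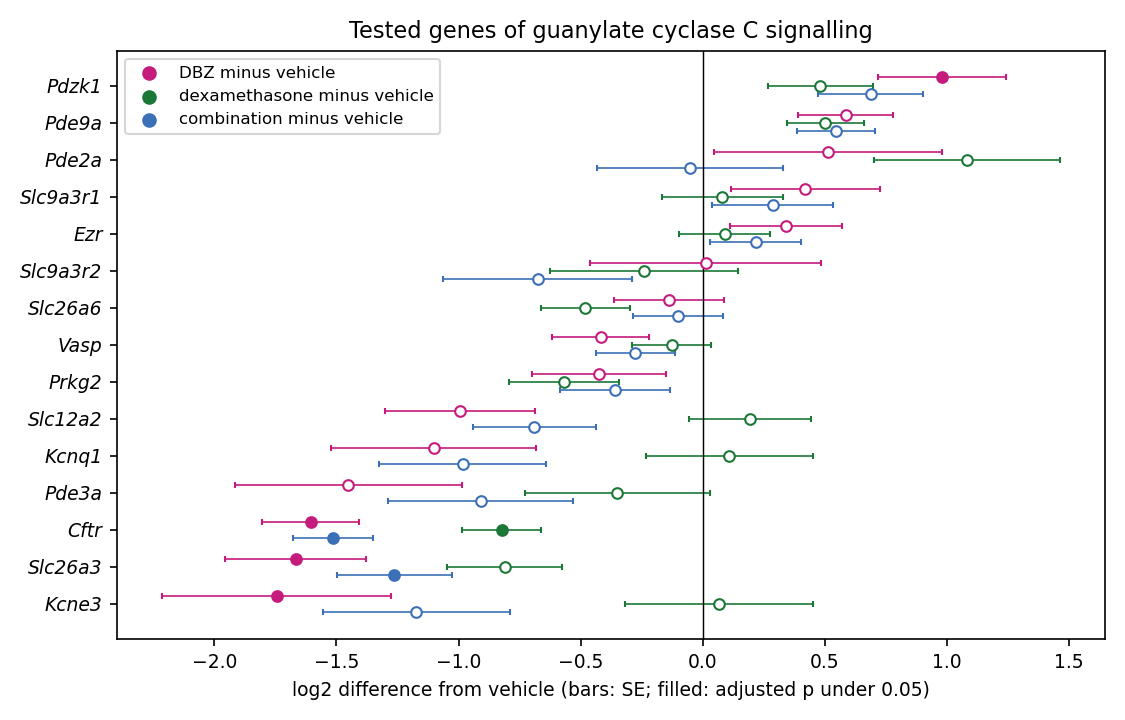
Log2 difference from vehicle of the 15 tested genes of guanylate cyclase C signalling, with SE bars, in the 3 treated groups; filled points have a limma adjusted p under 0.05. Cftr is filled in all 3 groups, at -1.61, -0.82 and -1.51, and Slc26a3 with DBZ and the combination.

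Other guanylate cyclases and natriuretic peptide genes formed a list of 17, of which 14 were named on the arrays and 4 passed the filter. Of those 4, 0 were called in any comparison, against 0.0293% to 12% of all tested probe sets. Gucy1b1, a subunit of the soluble guanylate cyclase that nitric oxide activates, differed by 0.96 (DBZ), 0.80 (dexamethasone) and 0.82 (combination; limma adjusted p 0.0972, 0.0830 and 0.0960), and Gucy1a1, its partner subunit, by 0.65, 0.60 and 0.23.

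Transcription factors of the intestinal epithelium were read beside the promoters, and 11 of a list of 14 were named and tested. With DBZ 0 rose and 4 fell, with dexamethasone 1 rose and 4 fell, and with the combination 0 rose and 3 fell. The median differences were 0.004, 0.246 and -0.005, against -0.05, 0.02 and -0.04 over all probe sets. Cdx2, a homeobox factor that sets intestinal identity, had a signal of 1312 and 1361 with vehicle and 509 to 736 in the treated arrays. It fell in all 3 groups, with differences of -1.02, -1.16 and -0.99 (limma adjusted p 0.0306, 0.00531 and 0.0155), and a second probe set gave -1.28, -0.33 and -0.30. Its call with DBZ was lost without either vehicle array or either combination array (limma adjusted p 0.0520 to 0.0700), and that with the combination without vehicle array 2 or either combination array (0.0654 to 0.129).

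Gata4, the GATA factor of the proximal small intestine, was at 664 and 473 with vehicle and 192 to 355 in the treated arrays. It is also counted on the proximal small intestine list. It fell with DBZ (-1.48, limma adjusted p 0.00971) and dexamethasone (-1.29, limma adjusted p 0.00422), and with the combination it was at -0.67 (limma adjusted p 0.0737). Gata6, a related factor of the whole intestine, fell in all 3 groups, with differences of -1.98, -1.13 and -0.71 (limma adjusted p 0.00124, 0.00313 and 0.0292). Against DBZ, Gata6 was 1.27 higher with the combination (limma adjusted p 0.0473), a call lost on leaving out any 1 of the 6 arrays other than DBZ (0.0519 to 0.250). Hnf4g, a nuclear receptor of enterocytes, fell with differences of -2.00, -2.18 and -1.08 (limma adjusted p 0.00726, 0.00100 and 0.0300). The calls of Gata6 and Hnf4g with the combination were lost without either vehicle array or either combination array (limma adjusted p 0.0505 to 0.205). Thus Guca2a rose in the arrays in which Gata4, Gata6, Hnf4g and Cdx2 had lower signals. Other factors of the list went the other way. Gata5, a further GATA factor, was at 376 and 298 with vehicle and 431 to 630 in the treated arrays. Klf4 was at 1680 and 2482 with vehicle and 2581 to 3535 in the treated arrays. Neither was called against vehicle. The Hnf4a probe set used for the list was at 2732 and 2454 with vehicle and 3343 to 3792 in the treated arrays. Vehicle and treated arrays also differed in the position markers given above. The part of intestinal position in the values of these factors, or of Cftr and the other signalling genes, was not tested.

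Hnf4a, a nuclear receptor that controls many epithelial genes, differed by 0.38, 0.42 and 0.46 from vehicle with DBZ, dexamethasone and the combination, and did not pass (limma adjusted p 0.271, 0.134 and 0.128) on the probe set used for the list. Its 4 probe sets disagreed in size and, with DBZ, in sign. Another of them rose with dexamethasone and the combination by 1.04 and 1.24 (limma adjusted p 0.0077 and 0.0057), and a further one also passed in both (limma adjusted p 0.0212 and 0.0119). Spdef, a factor of goblet cell maturation that is also on the goblet cell list, rose with dexamethasone by 1.15 (limma adjusted p 0.0430), a call lost without vehicle array 2 or any dexamethasone or combination array (0.0518 to 0.225). The interaction was called for Gata4 at 2.10, Gata6 at 2.40 and Hnf4g at 3.09 (limma adjusted p 0.00928, 0.00272 and 0.00501). Their sign, opposite to that of Guca2a, follows from the differences from vehicle already given. It is no separate sign of a link with Guca2a. The Gata4 interaction was lost without combination array 1 (2.07).

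The genes whose values ran most like each member over the 7 arrays were ranked by Pearson r among 7980 tested gene symbols, as a description. All points share the same 7 arrays, and a gene that merely separates vehicle from treated arrays scores high beside Guca2a. For Guca2a they were Kcnmb1 (r = 0.997), Rcn3 (0.995), Cltb (0.995), Dgka (0.993) and Tmigd1 (0.990). Tmigd1, a membrane protein of the epithelium on the distal small intestine list, was at 188 and 135 with vehicle and 2616 to 6138 in the treated arrays. Kcnmb1, a potassium channel subunit of smooth muscle, was at 30.9 and 28.0 with vehicle and 57.7 to 65.7 in the treated arrays, near the filter of 39.14.

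For Guca2b they were Kalrn (0.941), Tnks1bp1 (0.940), Enpep (0.939), Miga2 (0.937) and Sucla2 (0.933). Enpep, a brush border peptidase, was at 6627 and 6983 for vehicle, 5178 and 6442 for dexamethasone, 7225 for DBZ, and 6290 and 7658 for the combination. For Gucy2c they were Zmat2 (0.973), Vti1b (0.957), Pcbp4 (0.944), Smarcd2 (0.935) and Selenos (0.929), which like Gucy2c had their highest signal on the DBZ array. Between members, r was 0.04 for Guca2a with Guca2b, 0.08 for Guca2a with Gucy2c and 0.55 for Guca2b with Gucy2c over the 7 arrays.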

How the data were processed

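Total RNA of mouse small intestine was labelled and read on Affymetrix arrays. The authors deposited an intensity for every probe set, computed with MAS5 per the submitters' processing notes; its version and any genome build are not given in the sources used here. Gene names came from the platform annotation: 20393 of 22690 probe sets had 1 symbol, 691 several and 1606 none, and the promoter windows and the order of genes from RefSeq tables.

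Both DBZ columns were averaged to 1 array, since they were identical in 22684 probe sets, where no other pair of columns shared a value. This replaces the 2 DBZ samples of the labels. Groups came from the sample titles, and nothing else says how replicates were made, so p-values measure the spread between these arrays, which may be technical. Arrays were brought to a common trimmed mean of 250 (2% trimmed at each end, 64 control probe sets left out), and log2(signal + 12.46) was taken, the pseudocount being the pooled 20th percentile. Folds are on that scale. The filter required a mean of at least 39.14 (pooled 40th percentile), which removed 8989 probe sets and kept 13637. Using limma 3.58.1 (R 4.3.3), 1 mean per group was fitted (eBayes with an intensity trend, 3 residual and 6.85 prior degrees of freedom, 2-sided p, Benjamini-Hochberg at 0.05 across the 13637). "Rose" and "fell" are used of calls past that threshold. A gene with several probe sets was represented by the one with the highest mean signal. The pipeline was tested on simulated data. Figures were drawn with matplotlib 3.10.9 in Python 3.11.15.

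The members and all gene lists were chosen with earlier results of these data known. The named genes were the 3 members; list genes past the threshold, with Cftr, Prkg2, Slc9a3r1, Pdzk1, Cdx2 and Hnf4a in any case; up to 3 genes of smallest p of other lists; the 5 genes nearest each member by Pearson r without anonymous symbols; and Fabp6, Slc10a2, Reg1 and Slc46a1 for position. Pde9a, Cyp2c55, Retnlb, Aqp8, Fxyd4, Gata5, Klf4, Klk1, Galnt7, Gcg, Cd79a and Cd79b were named after their values were seen. Alternatives covered scaling, pseudocount, filter, variance model, the arrays in the fit, the replicate number as a block, and the omission of each array; fits without the vehicle arrays, and counts over the signalling list, were added after seeing the data. The letters TGTTCT were searched after the promoter windows had been seen. Another probe set of a member could not be tried, since each had 1.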

Additional observations from a re-analysis of the deposited data

Results flagged for a closer look

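Guca2a had an interaction of -2.34 (SE 0.32, limma adjusted p 0.00672): its difference between DBZ and vehicle was 2.21, and that between the combination and dexamethasone was -0.13. It was listed because the test of the difference between those effects passed the threshold, as it did for 4.01% of tested probe sets. The effect of DBZ without dexamethasone rests on 1 DBZ array and 2 vehicle arrays. The interaction stayed past the threshold in 14 of 14 alternatives, between -2.60 and -1.35, the smallest being that of the values as deposited. No group held the 4 arrays needed to look for a single outlying array. The treated groups lay close together, so the Guca2a interaction is near its DBZ difference from vehicle with the sign reversed. Genes that separate vehicle from treated arrays get an interaction by the same arithmetic. Negative interactions were also called for 7 of 14 distal small intestine genes (list median -1.81). They were called for 5 of 14 fibroblast and 4 of 12 smooth muscle genes (medians -1.53 and -1.51). Positive ones were called for 6 of 14 proximal small intestine genes (median 0.93), and for some absorptive enterocyte genes and transcription factors. The part of position or wall tissue in the Guca2a interaction was not tested.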

How the results depend on the processing

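Guca2a kept its call against vehicle under each alternative run: 15 for DBZ (1.21 to 2.32), 17 for dexamethasone (1.20 to 2.36) and 17 for the combination (1.07 to 2.33). Of the 20 changes of sign or of call among the members, 8 came with the values as deposited, 2 with quantile normalisation and 10 on leaving out 1 array. As deposited, Guca2b was at -0.70, -1.23 and -0.87 and Gucy2c at -0.33, -1.03 and -1.19 with DBZ, dexamethasone and the combination, with interactions of 1.06 and 0.17; the median of all probe sets then lay at -0.997, -0.923 and -0.985. With quantile normalisation the Guca2a difference of DBZ from dexamethasone was -0.22 and the Guca2b interaction -0.047. The replicate numbers did not pair the arrays: deviations of replicate 1 correlated at 0.05 (vehicle and dexamethasone), -0.12 (vehicle and combination) and 0.11 (dexamethasone and combination). The fit with the replicate block gave Guca2a 2.20 with dexamethasone and 2.07 with the combination (limma adjusted p 0.00135 and 0.00267), changed no call of a member, and called 0 probe sets in the combination against dexamethasone in place of 4.

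Leaving out 1 array gave, for Guca2b, -0.037 to 0.30 with the combination against vehicle and -0.14 to 0.27 in the interaction, and for Gucy2c -0.18 to 0.10 with dexamethasone against vehicle. For Guca2a it gave -0.40 to 0.12 for the combination against DBZ, -0.39 to 0.13 against dexamethasone, and -0.021 to 0.045 for DBZ against dexamethasone. Counts of called probe sets then ranged from 707 to 993 (DBZ against vehicle), 571 to 1617 (dexamethasone against vehicle), 169 to 1010 (combination against vehicle), 0 to 33 (combination against DBZ), 0 to 105 (combination against dexamethasone), 1 to 91 (DBZ against dexamethasone) and 96 to 576 (interaction).

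The same counts, in that order, were 9516, 10403, 11051, 8, 0, 8 and 6569 with values as deposited, where 126, 196 and 127 of the first 3 were higher, against 512, 976 and 606 here, and 540, 1080, 623, 5, 0, 1 and 235 with no filter. Without the intensity trend they were 684 (DBZ), 659 (combination), 0, 0 and 1 among the treated groups and 208 (interaction). Among the treated groups, in the order combination against DBZ, combination against dexamethasone and DBZ against dexamethasone, quantile normalisation gave 6, 0 and 5, only the groups compared 207, 17 and 0, and the fit without vehicle arrays 22 and 17 for the first 2. For the last 2, a pseudocount of 1 gave 0 and 71 and the stricter filter 0 and 26; a pseudocount of 32 gave 10 (combination against DBZ) and 6 (DBZ against dexamethasone), and robust eBayes 7 (combination against dexamethasone). At an unadjusted p under 0.05 the limma fit here gave 1683, 1265 and 2075. Over the signalling list, genes that fell with DBZ, dexamethasone and the combination numbered 10, 12 and 13 of 15 as deposited, and 6 with DBZ when only the groups compared were fitted, against 3, 1 and 2 here; leaving out 1 array gave 2 to 3, 0 to 1 and 1 to 2, and the list medians as deposited were -1.41, -0.92 and -1.35. As deposited, the vehicle arrays kept a trimmed mean of 497 against 248 to 249 elsewhere. Differences from vehicle and the interaction then carried that offset of scale. The causes of the other changes were not tested. With 1 DBZ array, its comparisons rest on the spread of the other groups.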

Other observations

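Other cell types of the epithelium were read from lists, with "rose" and "fell" for limma adjusted p under 0.05. Of 14 tested enteroendocrine genes, 2 rose and 2 fell with DBZ, 2 rose and 5 fell with dexamethasone, and 2 rose and 1 fell with the combination. Pyy, a hormone of distal enteroendocrine cells, rose by 3.28, 3.12 and 2.40. Its signal was low with vehicle, at 39.3 and 16.9, and 180 to 368 in the treated arrays. Cck, a hormone of proximal ones, fell in all 3 groups with differences of -1.85, -1.95 and -1.29. It went from 221 and 142 with vehicle to low signals of 36.3 to 80.2 in the treated arrays. Gcg, on this list and the distal small intestine list, was at 251 and 130 with vehicle and 80.4 with DBZ. Dexamethasone (240 and 239) and the combination (145 and 202) lay within its vehicle range. Of 5 tested Paneth cell genes, 2 rose with dexamethasone, Mmp7 by 1.44 and Pla2g2a by 0.99, and 0 were called with DBZ or the combination. Of 4 tested tuft cell genes, 1 fell with the combination, Alox5ap at -1.36, and 0 were called with either drug alone. Of 16 absorptive enterocyte genes, 1 (DBZ), 5 (dexamethasone) and 0 (combination) fell, among them Apob at -1.70 with DBZ and -2.33 with dexamethasone. Of 10 lymphocyte and plasma cell genes, 3, 4 and 3 fell and 0 rose, and Gzma, a granzyme of cytotoxic lymphocytes, fell with differences of -1.82, -1.52 and -1.72. With DBZ 5 of the 10 differences were positive and 5 negative (list median 0.03). Cd79a was at 105 on the DBZ array, against 28.2 and 63.0 with vehicle. Cd79b was at 96.3 there, against 21.3 and 82.0 with vehicle. Of 7 tested colon genes, 1 fell with DBZ, 1 rose with dexamethasone and 1 fell with the combination. For Slc46a1, which carries folate in the proximal intestine, the signal was 2212 and 3114 with vehicle and 248 to 842 in the treated arrays.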
